A study of Mus musculus with 23 samples.

Results

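The libraries compared here come from the iRFP-negative sort of Met1-iRFP breast tumours grown in FVB mice that were either exercised or kept sedentary. They were chosen by their sort and treatment labels alone and make up 8 of the 23 libraries of the series. Those of exercised mice carry the replicate numbers 7, 8, 9 and 10, and those of sedentary mice the numbers 4, 6, 9 and 10. The remaining 15 libraries, 7 of exercised and 8 of sedentary mice, hold the iRFP-positive cancer cells of the same model and serve here only to ask whether an effect differed between the sorts. The sources used here do not give the age of the mice, the exercise regime or its length. Nor do the labels say whether every library came from its own mouse, so p-values measure only the spread between these libraries, which may be technical.

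Met-1 is a mouse mammary carcinoma line derived from a tumour of an MMTV-PyMT mouse, and its cells were tagged with iRFP, a fluorescent protein that emits in the near infrared. The iRFP-negative sort, called the tumour microenvironment (TME) in the labels, would hold host macrophages, neutrophils, lymphocytes, mast cells, endothelium and fibroblasts, as well as any tumour cell without the marker. Interferon-gamma is released mainly by activated T cells and natural killer cells. Through the kinase JAK2 it switches on guanylate-binding proteins, the class I antigen presentation machinery and its activator NLRC5, and the checkpoint ligand PD-L1. Type I interferons act through factors that include STAT2 and IRF9 on a partly overlapping set of antiviral genes. Both responses can be mounted by leukocytes, stromal cells and tumour cells alike, so a bulk measurement does not say which cell made the transcript.

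Across all 16273 expressed genes, the genes with the smallest p-values were higher or lower by modest amounts in all 4 exercised TME libraries. On the higher side stood Nlrc5, Rsad2, Gbp5, Gbp4, H2-Q6, Uba7, Cd83, Oasl1, C4b and H2-Q7, with differences of 0.68 to 1.45 on the log2 scale. Of these, Nlrc5, Gbp5 and Gbp4 belong to the list of interferon-gamma response genes and Rsad2 and Oasl1 to that of type I interferon-stimulated genes. On the lower side stood Nr2f1, Tnfrsf25, Agpat1, Cplx2, Il20rb, C1qtnf1, Igfbp2, Wisp2 and Tmem44, with differences of -0.44 to -1.98. Pan-leukocyte genes had a median difference of 1.14, which was -0.44 without exercised libraries 8 and 9. No gene passed an adjusted p of 0.05 in edgeR's quasi-likelihood test (0% of the genes tested), where the smallest adjusted p was 0.586. At an unadjusted p under 0.05 the same test counted 802 genes higher (4.93%) and 571 lower (3.51%) in exercised libraries. The groups did not overlap at 284 genes that were higher (1.75%) and 302 that were lower (1.86%). The median difference of all genes was 0.0089 on the log2 scale, with 51.3% above 0.

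Other tools placed the line differently. DESeq2 called 41 genes at an adjusted p under 0.05, of which 27 were higher (0.173% of the 15626 genes with an adjusted p) and 14 lower (0.0896%). limma voom with quality weights called 0, although 3558 genes had an unadjusted p under 0.05 there. edgeR with no filter on low counts called 6 genes, namely Nlrc5, Rsad2, Gbp5, Gbp4, Tnfrsf25 and Cplx2, with adjusted p-values of 0.0339 to 0.0463. All 19 genes listed above were among those DESeq2 called, and each had an adjusted p of 0.586 in edgeR's main fit and up to 1 under the alternatives run.

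The sorted material differed between libraries in ways that touch every result below. Total counts ran from 16307545 to 35958441 in the sedentary and from 22682216 to 37388479 in the exercised libraries. Ptprc, which encodes the leukocyte surface protein CD45, stood at 17.6, 39.5, 44.4 and 29.2 CPM in sedentary libraries 4, 6, 9 and 10 and at 24.9, 183, 205 and 50.6 CPM in exercised libraries 7, 8, 9 and 10. CPM denotes read counts scaled to library size with TMM factors (trimmed mean of M-values), and every list of values below keeps this order of libraries. Exercised 8 and 9 thus held the most leukocyte transcript, while exercised 7 lay inside the sedentary range. The difference in mean log2 CPM of Ptprc was 1.43 with a two-sided exact permutation p of 0.171, where 70 splits allow 0.0286 at the smallest. Without exercised 8 and 9 it was 0.20 (exact permutation p = 0.733).

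Transcripts encoded by the mitochondrial genome made up 42.2%, 14.5%, 3.22% and 6.57% of the counts in the sedentary libraries and 5.93%, 2.61%, 4.28% and 8.63% in the exercised ones. Their counting error was small, with 95% Wilson intervals at most 0.048 percentage points wide that cover counting error only. The mean share was 16.6% ± 17.7 (SD, n = 4) against 5.36% ± 2.56 (SD, n = 4), a difference of -11.3 percentage points with an exact permutation p of 0.257. Sedentary 4 alone carried most of it, and without that library the difference was -2.73 percentage points (exact permutation p = 0.486). Sedentary 4 was also the richest in endothelial transcripts. The first principal component of the tested genes (37.9% of the variance) placed sedentary 4 at -92.4 and exercised 8 and 9 at 54.7 and 55.1, with the other 5 libraries between -14.7 and 12.4. The closest 2 libraries of one group, exercised 8 and 9, still differed with a chi-square per degree of freedom of 42.1, far beyond sampling noise, and all 8 were counted as separate libraries.

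**Figure D1:**
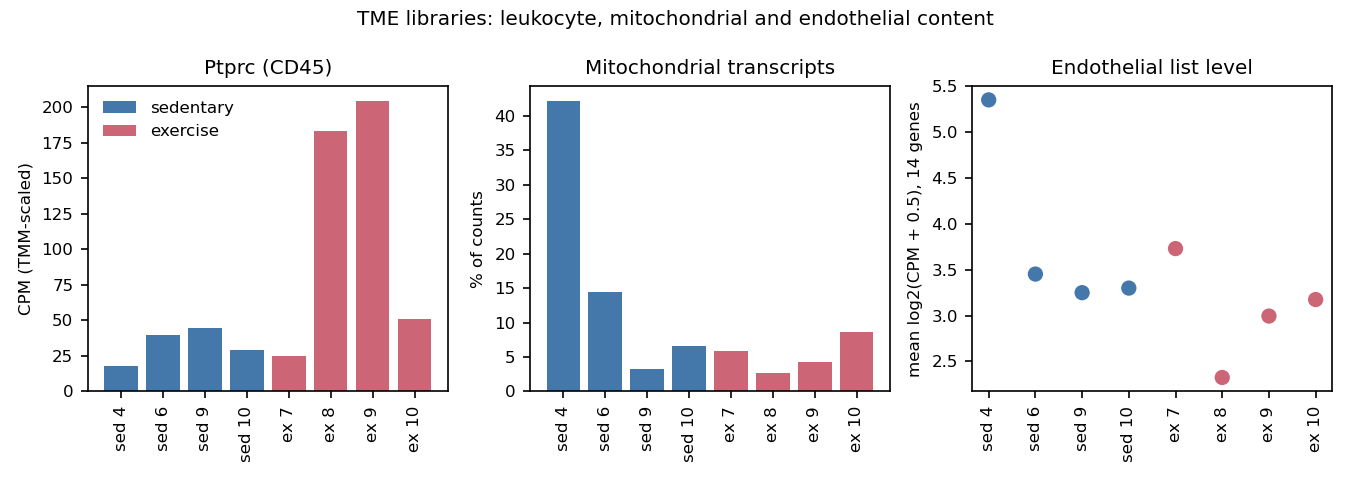
Bars give the Ptprc level in CPM and the mitochondrial share of counts in %, and points the mean log2(CPM + 0.5) of 14 endothelial genes, for each of the 8 TME libraries (sed, sedentary; ex, exercise). Exercised 8 and 9 reach 183 and 205 CPM of Ptprc against 50.6 or less elsewhere, and sedentary 4 stands alone with 42.2% mitochondrial counts and an endothelial level of 5.35.

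The label of the sort was checked against marker genes. In the fit on all 23 libraries, Ptprc averaged 33.2 CPM in sedentary TME libraries against 4.9 in sedentary cancer libraries. The endothelial adhesion gene Pecam1 averaged 24.1 against 1.26 CPM, and the fibroblast collagen gene Col1a1 315 against 24.8 CPM. Tumour-type transcripts were not depleted to the same degree. The epithelial keratin gene Krt18 averaged 74 against 92.7 CPM, and Spp1, which encodes osteopontin, 12124 against 15677 CPM. How many iRFP-negative tumour cells the sort held was not tested. Between treatments Spp1 differed by -0.03 ± 0.18 and Krt18 by -0.45 ± 0.30 log2 in the TME libraries, and their p-values were 0.883 and 0.173 before adjustment.

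The promoters of Rsad2 and Gbp5 are shown because both genes are textbook interferon targets among those with the smallest p and because their windows hold interferon elements. The RefSeq table on GRCm38.p6 has windows for 6 of the 10 genes named on the higher side (Rsad2, Gbp5, H2-Q6, Uba7, Oasl1 and H2-Q7) and for 7 of the 9 named on the lower side. The search covered the 250 bases before each start, on both strands, for the core of the interferon-stimulated response element (ISRE), which is GAAA, any 2 bases and GAAA again, and for the gamma-activated site (GAS), written TTCNNNGAA, and the matches shown do not overlap. Capitals mark the matches, and each sequence reads 5′ to 3′ in the direction of the gene. The Rsad2 window lies at chr12:26456453-26456702 on the minus strand and the Gbp5 window at chr3:142496684-142496933 on the plus strand.
Rsad2: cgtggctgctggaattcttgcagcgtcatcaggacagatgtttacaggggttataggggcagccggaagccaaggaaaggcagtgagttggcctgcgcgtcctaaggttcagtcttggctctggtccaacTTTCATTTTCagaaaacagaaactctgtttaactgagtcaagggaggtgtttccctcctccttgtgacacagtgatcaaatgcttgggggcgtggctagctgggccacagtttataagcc
Gbp5: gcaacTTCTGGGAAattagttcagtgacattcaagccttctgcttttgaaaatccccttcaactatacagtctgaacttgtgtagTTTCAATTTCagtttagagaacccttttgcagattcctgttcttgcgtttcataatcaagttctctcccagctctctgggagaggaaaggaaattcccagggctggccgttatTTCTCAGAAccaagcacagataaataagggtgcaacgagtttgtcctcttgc
Rsad2 has an ISRE core that starts 120 bases before the start. Gbp5 has an ISRE core that starts 165 bases before it and GAS matches at 245 and 52 bases. The Gbp5 window lies inside the span that GENCODE M21 gives the gene (chr3:142493978-142522344), so the RefSeq start used is not the outermost start. The ISRE core was present in 2 of the 6 windows on the higher side and in 0 of the 7 genes with windows on the lower side, against 2.74% of the 13773 windows of tested genes. A GAS match was present in 1 of 6 and in 2 of 7 (Tnfrsf25 and Agpat1), against 6.03% of those windows. The lower side is counted by gene, and Nr2f1, Tnfrsf25, Agpat1 and Igfbp2 have more than 1 window each. Tnfrsf25 and Agpat1 each matched in only 1 of theirs, so the counts by gene and the shares of windows are unlike measures. These are matches of letters in a short window and show no binding, and sites outside the window were not searched.

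Nlrc5 (chr8:94434356-94527272, plus strand, GENCODE M21 on GRCm38) encodes the factor that activates class I genes and had the smallest p of all ranked genes on the higher side. It stood at 89.5, 129.5, 85.3 and 110.1 CPM in the sedentary and 193, 185, 161 and 166 CPM in the exercised libraries. All 4 exercised libraries lay above all 4 sedentary ones, including exercised 7, whose Ptprc was low. The means were 104 ± 20.4 and 176 ± 15.4 CPM (SD, n = 4), and the difference was 0.77 ± 0.14 log2 (edgeR adjusted p = 0.586, DESeq2 adjusted p = 0.00969). It was 0.80 without exercised 8 and 9 and 0.79 with the Ptprc level as a covariate. In the fit on all 23 libraries Nlrc5 averaged 105 CPM in sedentary TME and 115 CPM in sedentary cancer libraries, so it did not set the sorts apart.

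Rsad2 (chr12:26442746-26456452, minus strand) encodes viperin, an antiviral enzyme, and stood at 6.37, 7.19, 5.03 and 6.45 CPM in the sedentary and 15.8, 19.2, 24.2 and 8.83 CPM in the exercised libraries. The exercised libraries lay above the sedentary ones, with exercised 10 the nearest to them. The difference was 1.45 ± 0.28 log2 in edgeR (adjusted p = 0.586) and had a DESeq2 adjusted p of 0.00856. It was 0.99 without exercised 8 and 9, so part of its size lay in those libraries. Oasl1 (chr5:114923240-114937915, plus strand), a relative of the oligoadenylate synthetases, had low levels of 5.63, 4.93, 3.78 and 4.32 CPM in the sedentary and 12.2, 11.4, 10.6 and 6.47 CPM in the exercised libraries. Its groups did not overlap either, and its difference of 1.13 ± 0.25 log2 was 1.02 without exercised 8 and 9. Uba7 (chr9:107975505-107984060, plus strand), the activating enzyme for the ubiquitin-like ISG15, stood at 27.1, 23.2, 21.4 and 21.3 CPM in the sedentary and 35.7, 58.1, 41.4 and 32.1 CPM in the exercised libraries, a difference of 0.85 ± 0.18 log2 that was 0.56 without those libraries.

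The guanylate-binding proteins are interferon-induced GTPases that act against intracellular pathogens, and their genes form clusters of near-identical copies whose reads may be shared. Gbp5 (chr3:142493978-142522344, plus strand) stood at 38.3, 27, 25 and 31.9 CPM in the sedentary and 50.9, 67, 71.6 and 44.7 CPM in the exercised libraries, a difference of 0.94 ± 0.18 log2. Gbp4 (chr5:105115767-105139586, minus strand) stood at 88.3, 91, 58.9 and 88.3 CPM in the sedentary and 143, 143, 145 and 115 CPM in the exercised libraries, a difference of 0.74 ± 0.15 log2. In both genes every exercised library was above every sedentary one, and without exercised 8 and 9 the differences were 0.66 and 0.67. In the fit on all 23 libraries Gbp5 averaged 31 CPM in sedentary TME and 22.3 CPM in sedentary cancer libraries, and Gbp4 82.8 and 101 CPM. Gbp7 and Gbp3 differed by 0.62 ± 0.17 and 0.45 ± 0.16 log2 with overlapping groups, and Gbp2 by 0.18 ± 0.22. These were 0.32, 0.30 and 0.41 without exercised 8 and 9. Gbp2 stood at 568, 378, 309 and 559 CPM in the sedentary and 641, 469, 387 and 559 CPM in the exercised libraries, so the libraries of both groups covered nearly the same range. Gbp8 and Gbp10 were also among the DESeq2 calls, and were picked for mention with their values known.

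H2-Q6 (chr17:35424850-35430055, plus strand) and H2-Q7 (chr17:35439155-35443773, plus strand) are neighbouring class I genes of the Q region, outside the classical set, and are similar enough that their split of reads is uncertain. H2-Q6 stood at 22, 33.7, 30.7 and 47.1 CPM in the sedentary and 61.8, 76.8, 79.8 and 53.4 CPM in the exercised libraries, a difference of 1.02 ± 0.22 log2. H2-Q7 stood at 23, 28.8, 21.4 and 36.9 CPM in the sedentary and 59.98, 56.9, 46.3 and 37.3 CPM in the exercised libraries, a difference of 0.86 ± 0.20 log2. Neither pair of groups overlapped, though exercised 10 and sedentary 10 were close at H2-Q7, with 37.3 and 36.9 CPM. The classical class I genes H2-D1 and H2-K1 differed by 0.44 ± 0.18 and 0.37 ± 0.20 log2, and their groups overlapped. H2-D1 stood at 2126, 2440.00, 2255 and 3474 CPM in the sedentary and 4075, 3691, 2994 and 3221 CPM in the exercised libraries, with sedentary 10 above exercised 9 and 10. B2m, the light chain of class I molecules, stood at 1774, 1995, 2132 and 2330.1 CPM in the sedentary and 2602, 3701, 3255 and 2356 CPM in the exercised libraries and did not overlap between groups, by the narrow gap of sedentary 10 to exercised 10. Its difference of 0.53 ± 0.17 log2 was 0.28 without exercised 8 and 9.

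Cd274 (chr19:29367455-29388095, plus strand) encodes PD-L1, the ligand through which cells restrain T cells that carry PD-1. It stood at 19, 32.2, 22.2 and 29.8 CPM in the sedentary and 39.3, 85.3, 104 and 49.6 CPM in the exercised libraries. The lowest exercised library, number 7, was above the highest sedentary one, and exercised 8 and 9 were far above the rest. The difference was 1.43 ± 0.32 log2 (edgeR adjusted p = 0.586, DESeq2 adjusted p = 0.00856), and 0.79 without exercised 8 and 9. Cd83 (chr13:43784775-43803132, plus strand), a surface protein of mature dendritic cells and activated lymphocytes, stood at 15.2, 21.4, 11.6 and 25 CPM in the sedentary and 31.5, 46.5, 57.7 and 36.2 CPM in the exercised libraries, a difference of 1.23 ± 0.26 log2 that was 0.90 without them. C4b (chr17:34728380-34743882, minus strand), which encodes complement component C4 and has a near-identical copy, stood at 234, 321, 306 and 367 CPM in the sedentary and 506, 501, 409 and 555 CPM in the exercised libraries. Its difference of 0.68 ± 0.15 log2 was 0.80 without exercised 8 and 9, so it was no smaller without the libraries highest in Ptprc.

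**Figure D2:**
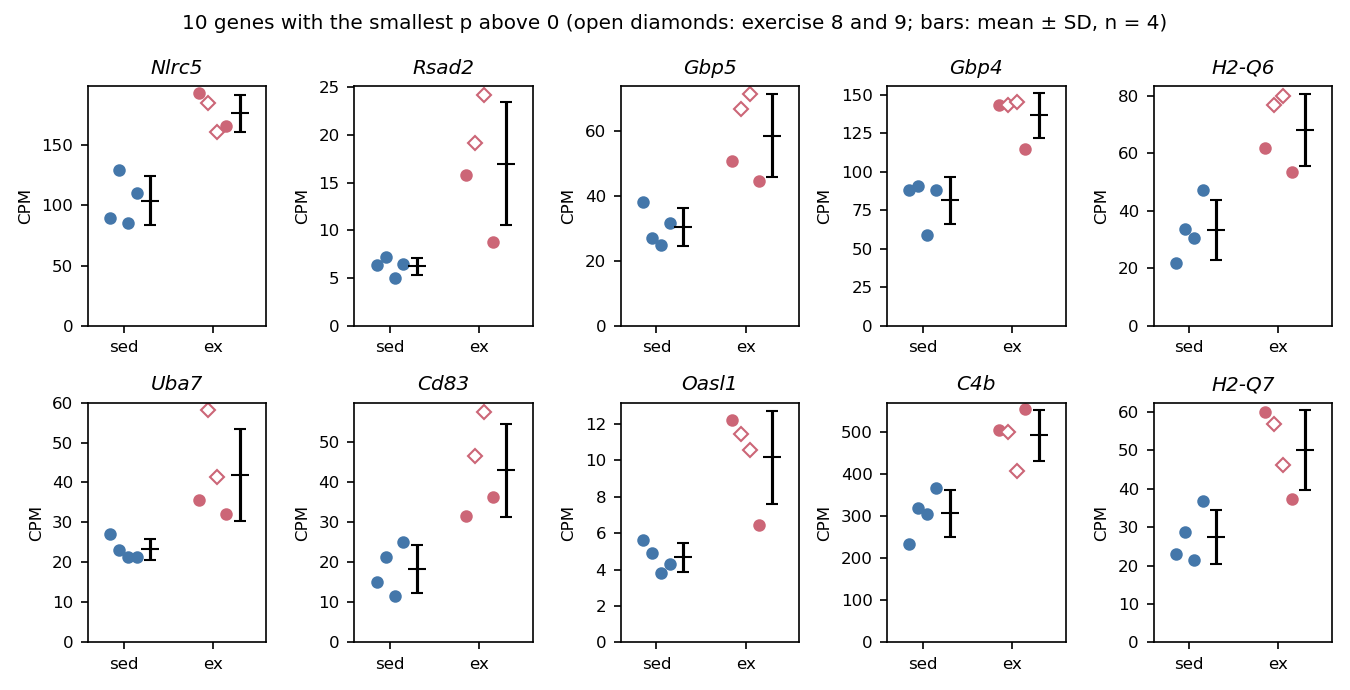
Levels in CPM of the 10 ranked genes with the smallest edgeR p on the higher side, with 1 point per library (open diamonds, exercised 8 and 9) and the mean ± SD of each group (n = 4). The exercised points lie above the sedentary points in every panel, and at Nlrc5, Oasl1, C4b and H2-Q7 the highest point is not a diamond.

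Interferon-gamma response genes were above 0 throughout the list. Of 24 members 23 were tested, and all of these were above 0 with a median of 0.49 log2, against 51.3% above 0 and a median of 0.0089 among all genes. At an unadjusted p under 0.05 there were 12 higher and 0 lower, 5 did not overlap between groups, and DESeq2 called 6. Over all genes the shares were 4.93% higher and 3.51% lower at that p. The share higher without overlap was 1.75%, and the share called higher by DESeq2 was 0.173%. These shares include some of the same genes. Iigp1, an immunity-related GTPase, differed by 0.71 ± 0.18 log2, the peptide transporter gene Tap1 by 0.58 ± 0.15 and the adhesion gene Icam1 by 1.32 ± 0.32. Icam1 was at 0.54 without exercised 8 and 9. Irf1 and Psmb8, equally well-known targets, were at 0.01 ± 0.20 and 0.02 ± 0.31. The mean log2(CPM + 0.5) of the list was 5.57, 5.35, 5.23 and 5.68 in the sedentary and 5.97, 6.26, 6.17 and 5.67 in the exercised libraries. Sedentary 10 and exercised 10 were level, and the other 3 exercised libraries lay above all sedentary ones.

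Leaving out exercised 8 and 9 gave a median of 0.38 for this list, with 20 of 23 above 0 and 7 higher at an unadjusted p under 0.05, where the share over all genes was 1.49% higher and 1.24% lower. With Ptprc as a covariate the median was 0.47, and without sedentary 4 it was 0.52. The chemokine genes Cxcl9, Cxcl10 and Cxcl11, which draw T cells, were the members below 0 without exercised 8 and 9, at -0.15, -0.07 and -0.82. Ifng itself was near 0, at 0, 0.199, 0.747 and 0.623 CPM in the sedentary and 0.0726, 2.54, 1.47 and 0 CPM in the exercised libraries, and was 0 in 1 library of each group. In the class I presentation list 13 of 16 tested members were above 0, with a median of 0.16 that was 0.26 without exercised 8 and 9. The proteasome activator genes Psme1 and Psme2 in it were at 0.10 ± 0.14 and -0.04 ± 0.11.

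Type I interferon-stimulated genes were less uniform. Of 22 tested, 20 were above 0 with a median of 0.42. At an unadjusted p under 0.05 there were 6 higher (4.93% over all genes), and 2 (Rsad2 and Oasl1) did not overlap between groups (1.75%). Isg15, the ubiquitin-like modifier, was at -0.41 ± 0.26 log2, and Ifit1 and Usp18 were at 0.13 ± 0.19 and 0.19 ± 0.27. Ifit2 stood at 21.1, 17.6, 25.1 and 17.8 CPM in the sedentary and 21, 41.2, 49.3 and 19.3 CPM in the exercised libraries, high only in exercised 8 and 9. Without those libraries the list's median was -0.09, with 8 of 22 above 0. Isg15, Ifit1 and Usp18 were at -0.15, -0.10 and -0.37 there, while Rsad2 and Oasl1 were at 0.99 and 1.02.

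Of the 10 leukocyte lists, 9 had medians of 0.82 to 1.46 log2, and the dendritic cell list had 0.27. In bulk libraries such as these, fewer cells of a type and less RNA per cell cannot be told apart. All 12 pan-leukocyte genes were above 0, with a median of 1.14 log2, but 1 had an unadjusted p under 0.05 and none was free of overlap between groups. Over all genes 4.93% were higher at that p. Their mean level was 4.87, 4.87, 5.07 and 4.78 in the sedentary and 4.29, 6.70, 6.69 and 4.79 in the exercised libraries. Exercised 8 and 9 stood apart, and exercised 7 was the lowest of all 8. Without exercised 8 and 9 the median was -0.44 and 1 of 12 genes was above 0.

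Macrophage genes followed the same libraries. All 15 were above 0 with a median of 0.96, and 6 had an unadjusted p under 0.05 (4.93% of all genes were higher at that p). Adgre1, which encodes the F4/80 antigen, stood at 19.2, 19.9, 27.3 and 22.1 CPM in the sedentary and 15, 112, 120.03 and 27 CPM in the exercised libraries. The mannose receptor gene Mrc1, a marker of tissue-repair macrophages, stood at 55.4, 87.5, 120.3 and 66.8 CPM in the sedentary and 62.4, 522, 795 and 95.1 CPM in the exercised libraries. In both genes exercised 7 and 10 lay within or below the sedentary range, and without exercised 8 and 9 the differences were -0.08 and -0.07 against 1.63 and 2.16 with them. Mertk, a receptor for the uptake of dying cells, was the 1 member without overlap (1.75% of all genes were higher without overlap). In the fit on all 23 libraries it averaged 13.7 CPM in sedentary TME and 16 CPM in sedentary cancer libraries, so it did not set the sorts apart. It stood at 9.78, 15.7, 13.2 and 15.2 CPM in the sedentary and 16.8, 28.9, 36 and 21.4 CPM in the exercised libraries, a difference of 0.93 ± 0.24 log2 that was 0.50 without exercised 8 and 9. The median of the macrophage list without them was -0.20. The monocyte and dendritic cell lists had medians of 0.88 and 0.27 with all libraries and 0.04 and -0.14 without exercised 8 and 9. In the dendritic cell list 10 of 12 were above 0, and the actin-bundling gene Fscn1, at -0.55 ± 0.18 log2 with overlapping groups, was the 1 member with an unadjusted p under 0.05. Over all genes 3.51% were lower at that p.

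Mast cell genes were also highest in those libraries. All 10 were above 0, with a median of 1.46 log2, and 6 had an unadjusted p under 0.05 (4.93% of all genes were higher at that p). Fcer1a, the alpha chain of the IgE receptor, stood at 1.02, 4.01, 4.48 and 1.11 CPM in the sedentary and 3.01, 26.4, 26.3 and 5.81 CPM in the exercised libraries, and the chymase gene Cma1 at 21, 34.3, 38.9 and 23.7 CPM in the sedentary and 21, 173, 144 and 43.4 CPM in the exercised libraries. Hdc, which makes histamine and is also expressed by neutrophils, stood at 7.66, 10.1, 6 and 5.61 CPM in the sedentary and 8.31, 19.7, 29.98 and 17.9 CPM in the exercised libraries and was called by DESeq2 (adjusted p = 0.0416). Without exercised 8 and 9 the list's median was 0.07, with Hdc at 0.84, Fcer1a at 0.70 and Cma1 at 0.12.

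Lymphocyte transcripts were scarce in all 8 libraries. Of 12 T cell genes, the 11 that were tested summed to 10.3 to 29 CPM in sedentary and 10.1 to 51.8 CPM in exercised libraries. Of 14 cytotoxic T and natural killer genes, the 9 that were tested summed to 8.03 to 17 and 7.33 to 60.00 CPM. Cd8a, the co-receptor of cytotoxic T cells, stood at 2.49, 0.755, 2.69 and 1.42 CPM in the sedentary and 0.835, 10.6, 7.05 and 2.27 CPM in the exercised libraries, with exercised 8 and 9 highest and exercised 7 below 3 of the sedentary libraries. Its difference was 1.51 ± 0.72 log2 (unadjusted p = 0.0645) and -0.24 without exercised 8 and 9. The medians of the T cell and cytotoxic lists were 0.99 and 1.29 over the 11 and 9 members tested, and -0.62 and -0.45 without exercised 8 and 9. Of 12 B and plasma cell genes 3 passed the filter on low counts. Ctla4 and Icos, which mark regulatory and activated T cells, were at 2.25 and 2.49 log2 with levels at or under 7.79 CPM. They were at -0.17 and 0.18 without exercised 8 and 9. The regulatory T cell list that holds both had a median of 0.99, and -0.09 without those libraries.

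Neutrophil genes kept a median above 0 without those libraries, as did the monocyte, mast cell and B and plasma cell lists (0.04, 0.07 and 0.14). Of 14 neutrophil genes tested, 13 were above 0 with a median of 0.95, and 13 of 14 were still above 0 without exercised 8 and 9, with a median of 0.22. At an unadjusted p under 0.05 there were 3 higher (4.93% of all genes), and 0 without exercised 8 and 9 (1.49%). With all libraries 0 members were free of overlap between groups (1.75% of all genes were higher without overlap). Camp and Ngp were highest in exercised 7, at 15.8 and 27.1 CPM. Trem1, an activating receptor of neutrophils and monocytes, stood at 5.17, 9.22, 3.01 and 7.43 CPM in the sedentary and 6.68, 11.6, 19.1 and 11.6 CPM in the exercised libraries, a difference of 0.98 ± 0.38 log2 that was 0.56 without exercised 8 and 9. The inflammatory cytokine and NF-kB list had 15 of 17 above 0, with a median of 0.37 that was 0.41 without exercised 8 and 9. At an unadjusted p under 0.05 there were 2 higher (4.93% of all genes), and 1, Tnf, did not overlap between groups (1.75%). The mean level of the list overlapped, at 4.41, 4.94, 3.87 and 5.09 in the sedentary and 5.03, 4.70, 5.13 and 5.13 in the exercised libraries. Tnf was its member with the smallest p and stood at 1.02, 4.33, 2.79 and 6.18 CPM in the sedentary and 6.53, 10.6, 11.6 and 8.04 CPM in the exercised libraries, with the exercised libraries above the sedentary ones by 1.34 ± 0.42 log2 (unadjusted p = 0.00912). By contrast, the neighbouring lists of CC chemokines, class II presentation and checkpoint genes had medians of 1.48, 0.85 and 1.02 that were -0.07, -0.15 and -0.15 without those libraries.

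**Figure D3:**
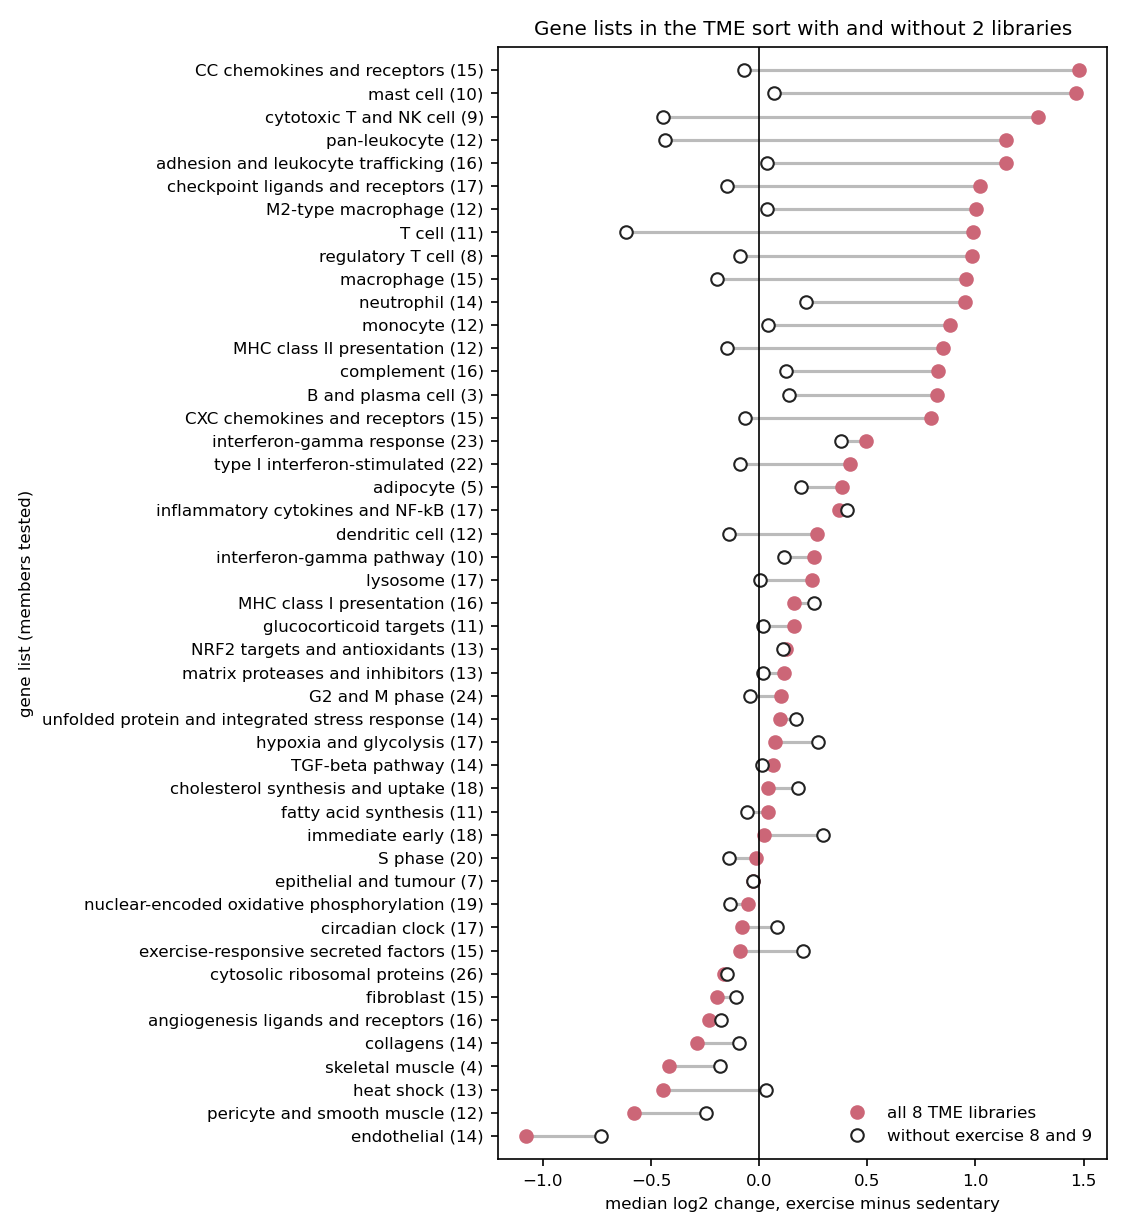
Median log2 difference (exercise minus sedentary) of each gene list over its tested members, in all 8 TME libraries (filled) and without exercised 8 and 9 (open). The pan-leukocyte list moves from 1.14 to -0.44 and the neutrophil list from 0.95 to 0.22, while the interferon-gamma response list is at 0.49 and 0.38; the mitochondrially encoded and erythroid lists are not drawn.

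Endothelial genes were lower in exercised libraries on average, and here sedentary 4 carried most of the difference. All 14 tested members were below 0 with a median of -1.08 log2, and 3 had an unadjusted p under 0.05 (3.51% of all genes were lower at that p). The tight-junction gene Cldn5 stood at 39.6, 7.27, 6.65 and 6.81 CPM in the sedentary and 5.95, 1.71, 3.39 and 6.51 CPM in the exercised libraries, the receptor gene Tie1 at 45.3, 13.3, 11.9 and 10.5 CPM in the sedentary and 12.3, 2.85, 6.9 and 7.17 CPM in the exercised libraries and Pecam1 at 57.8, 14.9, 10.9 and 11.3 CPM in the sedentary and 18.4, 10.5, 14.9 and 9.92 CPM in the exercised libraries. Sedentary 4 was far above every other library in each, and it is also the library with the highest mitochondrial share. Without it the list's median was -0.21 and Cldn5, Tie1 and Pecam1 were at -0.65, -0.70 and 0.14 against -1.76, -1.46 and -0.80 with it. With the mitochondrial share as a covariate the median was -0.13, and with Ptprc as a covariate -0.08. The part of that library's mitochondrial content in the endothelial difference was not tested.

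Pericyte and fibroblast genes showed smaller differences. In the pericyte and smooth muscle list 10 of 12 were below 0, with a median of -0.58. The median was -0.25 without sedentary 4, -0.25 without exercised 8 and 9 and -0.14 with Ptprc as a covariate. Pdgfrb, the receptor of pericytes and fibroblasts for platelet-derived growth factor, stood at 226, 230.1, 266 and 302 CPM in the sedentary and 190.3, 149, 156 and 194 CPM in the exercised libraries without overlap. In the fit on all 23 libraries it averaged 260 CPM in sedentary TME and 262 CPM in sedentary cancer libraries, so it did not set the sorts apart. Its difference was -0.57 ± 0.14 log2 (unadjusted p = 0.00135), -0.61 without sedentary 4 and -0.41 without exercised 8 and 9. Fibroblast genes had a median of -0.19, and Col1a1 stood at 214, 187, 299.9 and 542 CPM in the sedentary and 371, 79.5, 261 and 175 CPM in the exercised libraries, a spread within each group that was larger than the difference between them. Mitochondrially encoded genes had a median of -2.17, with 0 of 15 above 0, and -0.63 without sedentary 4.

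The genes on the lower side did not share a list. Nr2f1 (chr13:78188973-78199757, minus strand), a nuclear receptor known as COUP-TFI, stood at 57.2, 48.6, 51.3 and 55.8 CPM in the sedentary and 39.5, 28.5, 31.2 and 33.9 CPM in the exercised libraries. The sedentary libraries were closely grouped, all exercised ones lay below them, and the difference was -0.68 ± 0.13 log2 (DESeq2 adjusted p = 0.00969). Tnfrsf25 (chr4:152115934-152120119, plus strand) encodes death receptor 3, through which TL1A stimulates T cells, and stood at 72, 59.3, 46.3 and 68.1 CPM in the sedentary and 42.1, 28.9, 23.6 and 26.5 CPM in the exercised libraries. Its difference was -1.02 ± 0.20 log2 (DESeq2 adjusted p = 0.00856), and -0.83 without exercised 8 and 9. Il20rb (chr9:100457719-100486788, minus strand), a receptor subunit for interleukins of the IL-20 family, stood at 22.2, 27.2, 18.6 and 24.9 CPM in the sedentary and 14.6, 13.4, 11.9 and 14.9 CPM in the exercised libraries, a difference of -0.77 ± 0.16 log2.

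Agpat1 (chr17:34604262-34613449, plus strand), an acyltransferase of phospholipid synthesis, stood at 88.5, 83.5, 88.4 and 86.6 CPM in the sedentary and 69.6, 56.8, 57.5 and 55 CPM in the exercised libraries and differed by -0.54 ± 0.11 log2. Cplx2 (chr13:54371349-54383917, plus strand), a regulator of vesicle fusion, stood at 64.8, 44.3, 53.9 and 48.9 CPM in the sedentary and 29.3, 19.7, 29.6 and 35.6 CPM in the exercised libraries and differed by -0.89 ± 0.18 log2. Both were free of overlap, and without exercised 8 and 9 they were at -0.47 and -0.70. Igfbp2 (chr1:72824503-72852474, plus strand), which binds insulin-like growth factors, had the largest difference of the 19 genes, -1.98 ± 0.45 log2, on low levels of 10.2, 5.52, 4.9 and 6.05 CPM in the sedentary and 3.34, 1.13, 1.54 and 0.7 CPM in the exercised libraries. Sedentary 4 was its highest library, and without it the difference was -1.69. C1qtnf1, Wisp2 and Tmem44 differed by -0.51, -0.56 and -0.44 log2, each without overlap.

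**Figure D4:**
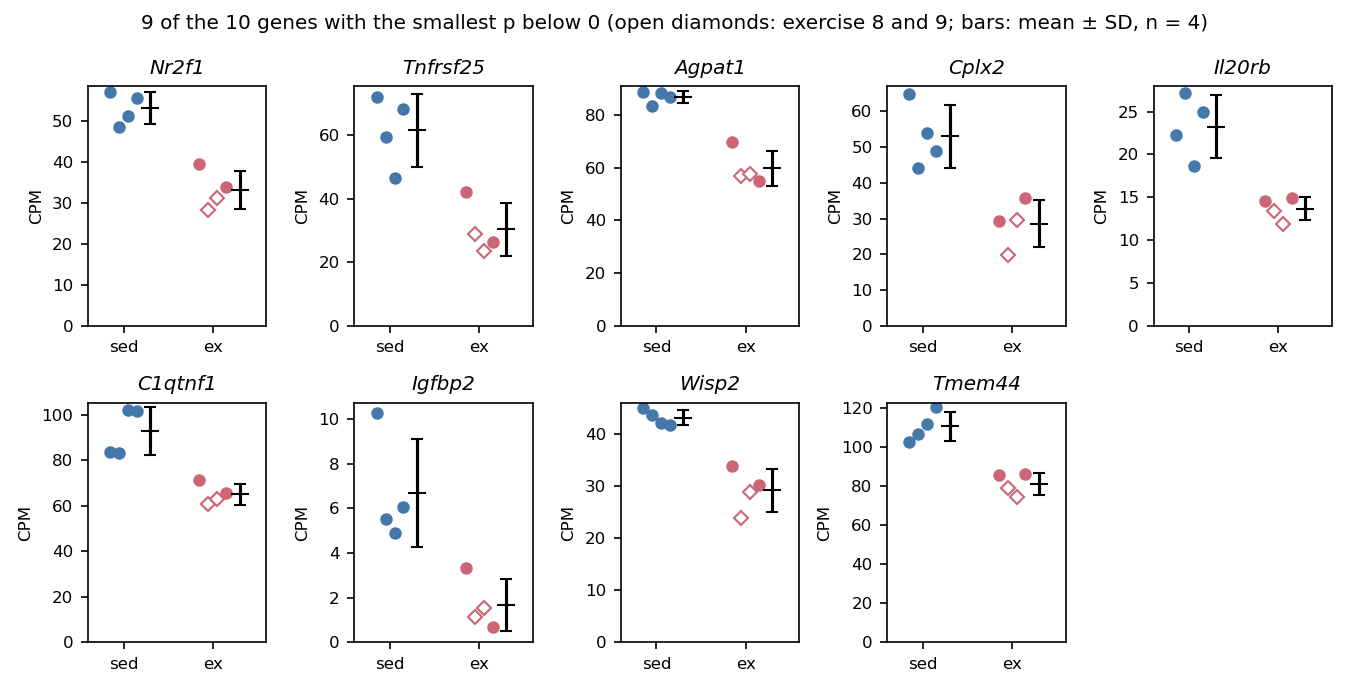
Levels in CPM of 9 of the 10 ranked genes with the smallest edgeR p on the lower side, with 1 point per library (open diamonds, exercised 8 and 9) and the mean ± SD of each group (n = 4). The exercised points lie below the sedentary points in every panel, from a log2 difference of -0.44 at Tmem44 to -1.98 at Igfbp2.

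The genes DESeq2 called are described in the same way. They were called on these same libraries, which largely fixes their direction and lack of overlap and is no sign of stability. Of the 27 higher genes, 19 did not overlap between groups, 27 kept their direction without exercised 8 and 9 and 23 were still at 0.5 log2 or more there. Ciita, the activator of class II genes, stood at 5.45, 7.55, 13.5 and 6.67 CPM in the sedentary and 9.69, 46.9, 35.9 and 16 CPM in the exercised libraries and differed by 1.69 log2 with all libraries and 0.62 without exercised 8 and 9. The 14 lower genes were all without overlap and kept their direction, and 10 were at 0.5 log2 or more in size without exercised 8 and 9. The interferon and class I lists held 8 of the 27 higher genes and 0 of the 14 lower ones. The interferon-gamma response, type I interferon and class I lists had 23, 22 and 16 tested members, and they share some genes. Of the 15626 genes with a DESeq2 adjusted p, 0.173% were called higher and 0.0896% lower. The lists were chosen with earlier results of these data known, and whether they held more calls than other genes was not tested.

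Clock genes, heat shock genes and immediate early genes, which respond to time of day and to handling, are given beside these results. Over all genes 3.51% were lower at an unadjusted p under 0.05. Of 17 clock genes tested, Tef, Per3 and Dbp, which are driven by the clock in many tissues, had such a p, at -0.54 ± 0.16, -0.78 ± 0.27 and -0.91 ± 0.34 log2. Without exercised 8 and 9 they were at -0.38, -0.47 and -0.84, and the list's median was 0.08 against -0.08 with all libraries. Dbp stood at 14.1, 8.74, 6.57 and 10.3 CPM in the sedentary and 2.76, 5.42, 4.56 and 8.26 CPM in the exercised libraries and overlapped between groups. Arntl, which is high when Dbp is low in the cycle, was at 0.43 ± 0.21 log2. The sources used here do not give the hour of collection, and its part in the results was not tested. Of 13 heat shock genes 12 were below 0 with a median of -0.44, and 0 had an unadjusted p under 0.05. That median was 0.03 without exercised 8 and 9, where 8 of 13 were above 0. Hspa1b stood at 133, 166, 23.6 and 458 CPM in the sedentary and 194, 52.7, 48.9 and 201 CPM in the exercised libraries, a wide spread in both groups. The immediate early list had a median of 0.02, and 0.29 without exercised 8 and 9.

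Among secreted factors known to respond to exercise in muscle or other tissues, 15 of 18 were tested and 6 were above 0, with a median of -0.09. Leaving out exercised 8 and 9 gave 0.20, and 11 of 15 were above 0. Metrnl, which encodes the hormone meteorin-like, stood at 40.7, 41.3, 29.9 and 41.3 CPM in the sedentary and 42.2, 48.7, 51.1 and 52.2 CPM in the exercised libraries, without overlap and by 0.34 ± 0.14 log2. Fndc5, the precursor of irisin, was lower, at 79.9, 73.6, 93.6 and 117 CPM in the sedentary and 68.3, 67.4, 60.7 and 69.95 CPM in the exercised libraries and -0.45 ± 0.14 log2, also without overlap. Il15, a growth factor of natural killer and memory T cells, was high only in exercised 8 and 9 among the exercised libraries, at 1.85, 1.51, 1.05 and 0.845 CPM in the sedentary and 2, 4.13, 5.35 and 0.918 CPM in the exercised libraries, and its difference of 1.27 ± 0.52 log2 was 0.18 without them. All 3 had unadjusted p-values of 0.00867 to 0.0314 and adjusted p-values above the threshold in edgeR. Thrsp, a lipogenic factor, was the fatty acid synthesis gene with the smallest p, at 12.7, 12.2, 11.1 and 20.5 CPM in the sedentary and 9.94, 7.78, 5.78 and 6.51 CPM in the exercised libraries and -0.91 ± 0.25 log2. Proliferation differed little, with Mki67 at 0.26 ± 0.16 log2 (0.07 without exercised 8 and 9) and list medians of 0.10 for G2 and M phase and -0.02 for S phase.

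Whether these effects differed from those in cancer cells was asked in 1 fit on all 23 libraries. No gene passed the test of the difference in edgeR (0% of 17503, smallest adjusted p = 0.237), and 731 were above 0 and 585 below 0 at an unadjusted p under 0.05. Over the other tools and settings the count of calls ran from 0 to 52, with 2 by DESeq2 and 40 by limma voom. Among the genes described, Cplx2 was at -0.88 ± 0.16 log2 in TME and -0.00067 ± 0.12 in cancer libraries, a difference of -0.88 ± 0.20 (adjusted p = 0.464). Nr2f1 and Agpat1 were similar, at -0.66 ± 0.13 and -0.52 ± 0.13 in TME against -0.04 ± 0.09 and 0.11 ± 0.09 in cancer libraries. Cd274 was at 1.45 ± 0.29 against 0.13 ± 0.21, and the difference of 1.32 ± 0.35 had an unadjusted p of 0.00102.

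For Tnfrsf25 and Il20rb the estimates lay closer together. Tnfrsf25 was at -1.0 ± 0.20 in TME and -0.73 ± 0.15 in cancer libraries, a difference of -0.28 ± 0.25, and Il20rb at -0.75 ± 0.16 and -0.46 ± 0.12, a difference of -0.29 ± 0.20. Nlrc5 was at 0.78 ± 0.21 and 0.33 ± 0.15, and Gbp5 at 0.97 ± 0.28 and 0.35 ± 0.21, with differences of 0.45 ± 0.26 and 0.61 ± 0.35. The antiviral genes Rsad2 and Oasl1 were further apart, with differences of 1.20 ± 0.41 and 1.0 ± 0.37 and unadjusted p-values of 0.0071 and 0.0126. None of these passed after adjustment, which does not show that the effects were alike. Most genes compared here were named for a small p in the same TME libraries. Their TME estimates and their differences between sorts therefore lean away from 0, and the unadjusted p-values carry that choice. The TME estimates also include exercised 8 and 9, without which Cd274 and Rsad2 were at 0.79 and 0.99 in the fit on TME libraries.

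**Figure D5:**
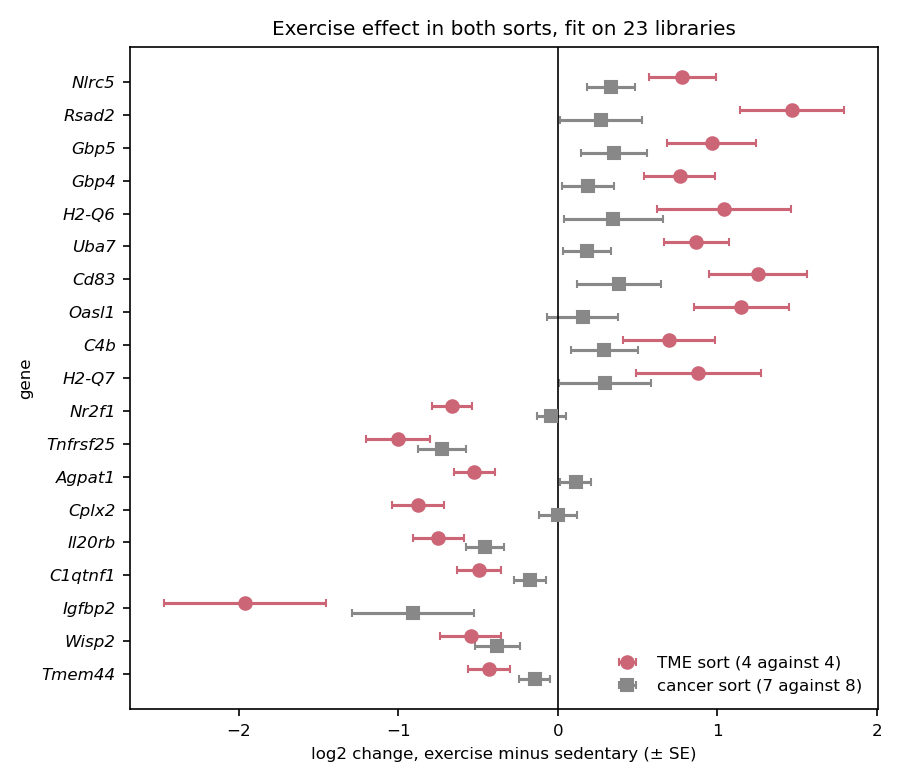
Log2 difference between exercised and sedentary libraries (± SE) of the 19 ranked genes named above in the TME sort (circles, 4 against 4 libraries) and the cancer sort (squares, 7 against 8), from 1 fit on 23 libraries. Rsad2 lies at 1.47 in TME and 0.27 in cancer libraries, and Cplx2 at -0.88 and about 0. The intervals of H2-Q6, C4b, H2-Q7, Tnfrsf25 and Wisp2 overlap between the sorts. The genes were picked by their p in the TME libraries, which favours large values there.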

How the data were processed

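PolyA RNA of sorted cells was extracted with Trizol and sequenced from KAPA Standard mRNA-Seq libraries, per the labels' protocols. The values are raw counts per gene that the authors deposited for 48397 gene symbols and 23 libraries. The tools were STAR for alignment and featureCounts for counting, with the mm10 build, per the submitters' processing notes. The sources used here give no versions, annotation release or strand setting. Overlapping and antisense genes may therefore share reads, as may near-identical copies, and neither can be told apart. Symbols were matched to GENCODE M21 for 46394 entries (95.86%).

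The main test was edgeR 4.0.16 in R 4.3.3 (filterByExpr, TMM scaling, robust quasi-likelihood test, two-sided, Benjamini-Hochberg adjustment over 16273 genes, threshold 0.05) on the 8 TME libraries, with no covariate. Differences are log2 values of exercise minus sedentary ± the standard error of the fit. The difference between sorts was fitted on all 23 libraries. Ptprc and the mitochondrial share were compared by exact permutation tests over libraries. DESeq2 1.42.0, limma 3.58.1 (voom with quality weights), other scalings and filters, covariates, the replicate number as a block and each library left out in turn were alternatives. Leaving out exercised 8 and 9, also with sedentary 4, was added after the data were seen. The fit was tested on simulated data.

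Named genes were taken by smallest edgeR p, 10 on the higher and 10 on the lower side, with predicted genes and receptor segments left out of the ranking (2 on the higher side, 0 on the lower). Added to these are, from each of 49 lists, at most 4 members ranked by smallest p among those with an unadjusted p under 0.05, 12 genes always given, and the 5 smallest DESeq2 adjusted p-values in each direction. Some genes that these rules select are not reported here and were not replaced. Other list members were named for their role. The libraries, lists and genes were chosen with earlier results of these data known. Lists are described by counts and medians beside those of all genes.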

Additional observations from a re-analysis of the deposited data

Results flagged for a closer look

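In 124 values checked, each in both groups of 4 libraries, 15 of the 248 groups had 1 library far from the other 3. Chance flags about 1 in 20 groups. Sedentary 4 was the library in 7 of them. It stood at 57.8 CPM of Pecam1, 18.5 CPM of Emcn, 45.3 CPM of Tie1, 39.6 CPM of Cldn5 and 8272 CPM of mt-Nd6, and its endothelial list level was 5.35 on the log2 scale. These 6 were above the other sedentary libraries. Its B and plasma cell level of 1.56 was below them.

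Other libraries were far from their group in single genes. In the sedentary group, number 9 was low in Gbp4 (58.9 CPM) and in Metrnl (29.9 CPM), and number 10 was high in Cd247 (0.400 CPM, with the other 3 at 0). In the exercised group, number 7 was high in Agpat1 (69.6 CPM) and Selp (2.72 CPM), number 9 in Cxcl2 (186 CPM) and number 10 in Tef (64.8 CPM), while number 10 was low in Gbp4 (115 CPM). Leaving out each of these libraries kept the direction of the gene concerned, other than Pecam1 without sedentary 4. The gap at Gbp4 lies inside each group, and the groups did not overlap there.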

How the results depend on the processing

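The count of genes called in TME libraries was 0 in edgeR, 41 with DESeq2 and 6 with no low-count filter, and 0 under every other setting run, the replicate block included. For the difference between sorts it was 0 in the main fit, 2 with DESeq2, 40 with limma voom, 14 with the replicate block and 0 to 52 with 1 TME library left out (52 without exercised 7). Ptprc was higher by 0.99 to 2.01 log2 with 1 library left out, and without exercised 7 its exact permutation p was 0.0286, the smallest that 35 splits allow. The replicate numbers 9 and 10 occur in both treatments, but the deviations of their libraries correlated at 0.27 and 0.018, and sedentary 9 correlated as closely with exercised 8 (0.29), so numbers were not taken as pairs.

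Directions turned in these cases. With Ptprc as a covariate, Adgre1 was at -0.17, Ccl9 at -0.037, Cd74 at -0.11, Cd8a at -0.31, Cma1 at -0.049, Ctla4 at -0.46, Ctsb at -0.010, Ifng at -2.76, Itgam at -0.14, Krt18 at 0.030, Mrc1 at -0.12 and Spp1 at 0.044. Without exercised 8 and 9, Adgre1 was at -0.075, Ccl9 at -0.032, Cd74 at -0.097, Cd8a at -0.24, Cfp at -0.048, Ctla4 at -0.17, Ifng at -3.26, Mrc1 at -0.068 and Spp1 at 0.15. Without sedentary 4 as well, Adgre1 was at -0.14, Ccl9 at -0.10, Cd74 at -0.088, Cd8a at -0.089, Cfp at -0.025, Clec10a at -0.013, Cma1 at -0.012, Ctla4 at -0.42, Ctsb at -0.045, Icos at -0.18, Ifng at -3.62, Itgam at -0.18, Mrc1 at -0.22, Pecam1 at 0.20, Ptprc at -0.0065 and Spp1 at 0.060. Without sedentary 4 and 6, Epcam was at 0.79 and Pecam1 at 0.29. Epcam was at 0.98 with limma voom. With the mitochondrial share as a covariate, Epcam was at 0.087, Ifng at -0.60 and Pecam1 at 0.20. With the replicate block, Epcam was at 1.24, Ifng at -0.73, Mki67 at -0.029, Pecam1 at 0.14 and mt-Nd6 at 0.099. With 1 library left out, Pecam1 ran from -1.04 to 0.14, Epcam from -0.42 to 0.44 and Spp1 from -0.16 to 0.039. The 19 ranked genes named in the report kept their direction under every alternative run, which their choice by smallest p among groups that do not overlap largely fixes and is no sign of stability. Of the 49 list medians, 32 kept their sign without exercised 8 and 9 and 26 with Ptprc as a covariate. Without those libraries only 2 exercised ones remain, and the cause of each change was not tested. Depth limits Ifng, Cd247 and Epcam, which lay near 0 in some libraries.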

Other observations

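Several other gene lists had medians of 0.80 to 1.14 log2 in exercised against sedentary TME libraries. Adhesion and leukocyte trafficking genes had a median of 1.14 with 13 of 16 above 0 and 7 at an unadjusted p under 0.05 (4.93% of all genes were higher at that p). The median was 0.03 without exercised 8 and 9. The lists of M2-type macrophage, complement and CXC chemokine and receptor genes had medians of 1.0, 0.83 and 0.80, and 0.04, 0.12 and -0.07 without those libraries.

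Other lists had smaller medians. Hypoxia and glycolysis genes had a median of 0.07 log2 with 11 of 17 above 0, unfolded protein and integrated stress response genes 0.10, cholesterol synthesis and uptake genes 0.04, and TGF-beta pathway genes 0.07. Cytosolic ribosomal protein genes had 5 of 26 above 0 and a median of -0.16. Rps12, a protein of the small ribosomal subunit, stood at 457, 292, 289 and 371 CPM in the sedentary and 291, 225, 175 and 270.01 CPM in the exercised libraries, with sedentary 4 highest, and differed by -0.55 ± 0.19 log2 with all libraries and -0.39 without sedentary 4, and -0.32 without exercised 8 and 9. Collagen genes had a median of -0.29 and 4 of 14 above 0.

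In the CXC list 2 of 15 members, Cxcl2 and Cxcl13, did not overlap between groups (1.75% of all genes were higher without overlap). The neutrophil attractant genes Cxcl1, Cxcl3 and Cxcl5 overlapped, at -0.04 ± 0.66, 0.25 ± 0.75 and -0.46 ± 0.44 log2. Cxcl2, also a neutrophil attractant, stood at 11.4, 43.1, 7.67 and 32.3 CPM in the sedentary and 53.9, 56.8, 186 and 45.7 CPM in the exercised libraries, a difference of 1.85 ± 0.72 log2 that was 1.08 without exercised 8 and 9. Cxcl13, which guides B cells, was scarce, at 0.369, 0, 0.0747 and 0.445 CPM in the sedentary and 1.74, 2.66, 1.49 and 0.568 CPM in the exercised libraries, and differed by 3.0 ± 0.85 log2. Ccl4, made by activated macrophages and lymphocytes, stood at 7.2, 18, 9.11 and 20.8 CPM in the sedentary and 22.2, 35, 58.7 and 24.6 CPM in the exercised libraries, a difference of 1.34 ± 0.42 that was 0.76 without exercised 8 and 9. The adhesion gene Selp was highest in exercised 7, and Lyve1, found on lymphatic endothelium and some macrophages, was at or under 2.12 CPM in all libraries.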
